A study of Mus musculus with 15 samples.

Results

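The comparison described here sets the livers of mice given 1 dose of thyroid hormone against untreated livers of the same experiment subset. It was defined by the sample titles and holds 6 of the 15 Illumina bead arrays of the series, 3 of the acute T3 group and 3 of baseline A. All mice were 8-week-old male C57BL/6 animals kept under 12 h of light and 12 h of darkness. Mice of the acute T3 group received 1 intraperitoneal injection of liothyronine (T3) at a dose of 20 µg/100 g body weight and were killed 6 h later. No injection is given for baseline A, nor for baseline B, the 3 untreated arrays of the other subset, and no vehicle group is described, so effects of T3 and of the injection cannot be told apart. The sample values used here hold no time of day at death for any group, and its part in the differences was not tested. Chronic T3, used below for 1 comparison, means 14 daily injections of the same dose with death 6 h after the last, in the subset of baseline B. Nothing in the sources used here says that each array is a separate animal, so the errors measure the spread between samples. The RNA came from whole liver, a mixture of cell types, in which fewer cells of a type and less RNA per cell cannot be told apart.

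T3 enters liver cells and binds nuclear thyroid hormone receptors, of which the beta form predominates in hepatocytes. The receptors sit on DNA together with retinoid X receptors, and hormone binding exchanges corepressors for coactivators at the genes they control. In liver the hormone is known to raise lipogenic genes, cholesterol and bile acid metabolism, mitochondrial respiration and its own deiodination.

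Each value below is a normalized log2 signal on 1 array or a log2 difference between group means ± its moderated standard error, with n = 3 arrays a group. A gene was called, and is said to have risen or fallen, where limma's moderated test gave an adjusted p (Benjamini-Hochberg over the 8976 genes tested) under 0.05. Mean array signals were 567 to 651 in baseline A and 597 to 675 in acute T3, and the number of probes detected on an array was 13583 to 14158 and 14376 to 14679. The median standard deviation of a gene was 0.22 in baseline A and 0.15 in acute T3. Pairs of baseline A arrays correlated at 0.963 to 0.984 across genes and pairs of acute T3 arrays at 0.986 to 0.992. Precision is limited throughout by the number of arrays, 3 in each group. The hepatocyte markers were tested in full, 20 of 20, with mean log2 levels of 12.9 to 13.1 in baseline A and 12.9 in every acute T3 array.

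Within 6 h of the injection 190 genes differed from baseline A, 2.12% of the genes tested. Of these, 132 rose (1.47%) and 58 fell (0.646%), and 58 rises and 25 falls reached 2-fold. The median called rise was 0.95 and the median called fall -0.88, beside a median of -0.0026 over all genes tested. With each array scaled to its median instead of quantile normalization, 123 genes were called, 91.9% of them rises in place of 69.5%, and the median over all genes was 0.14. Among genes named below, Alb, Clock, Cry2, Fas, Gclc, Igfbp4, Nr1i2, Nupr1, Pxmp4, Sc5d, Sesn1, Slc25a42, Stip1 and Tbl1xr1 kept their direction and lost the call under that scaling. In all 190 called genes the 3 acute arrays lay on one side of the 3 baseline A arrays, which held for 21.9% of all genes tested. Leaving out 1 array lowered the number called to between 48 without acute T3 replicate 3 and 164 without baseline A replicate 3. The other counts were 52 without acute T3 replicate 1, 57 without baseline A replicate 1, 82 without acute T3 replicate 2 and 96 without baseline A replicate 2. A set of 40 genes, 35 rises and 5 falls, was called with all arrays and without each of the 6 arrays in turn.

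**Figure D1:**
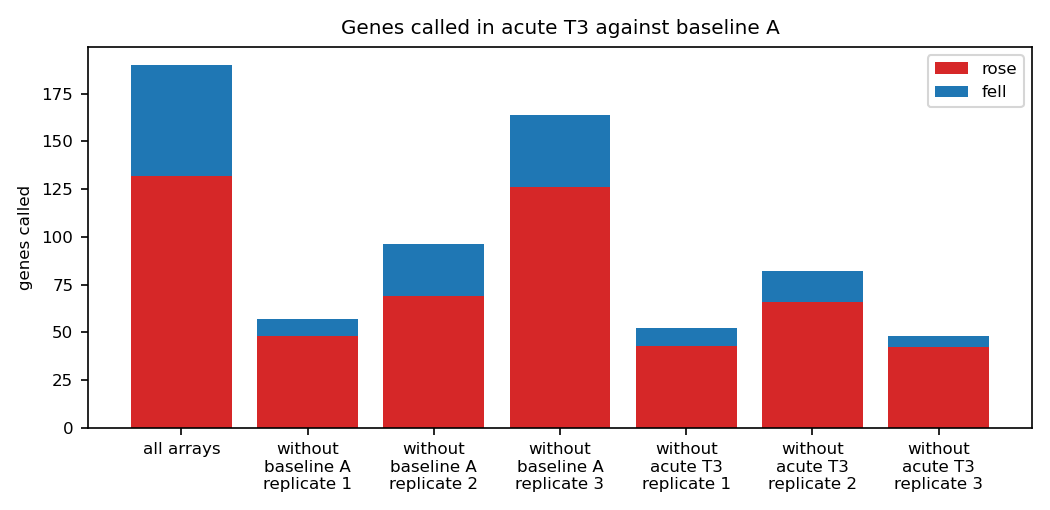
Number of genes called in acute T3 against baseline A (y axis, genes; red, rises; blue, falls stacked on top) with all arrays and without each of the 6 compared arrays (x axis). The count is 190 with all arrays and lowest, 48, without acute T3 replicate 3.

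The untreated baselines of the subsets themselves differed in 782 genes (8.71% of those tested), 245 higher in baseline B (2.73%) and 537 lower (5.98%). Among the 190 genes of the acute response, 52 were also called in baseline B against baseline A in the same direction. These were 29 of the 132 rises (22.0%) and 23 of the 58 falls (39.7%). Both differences use the same 3 baseline A arrays, so a baseline A array that stands apart enters both, and the count marks genes and supports nothing further. The count fell to 10 without baseline A replicate 1, to 15, 18 and 25 without acute T3 replicates 3, 1 and 2, and to 32 and 31 without baseline B replicates 2 and 3. Among the 190 genes only Ppp1r3g and Slc25a42 were called in opposite directions. Of the 40 genes that kept the call without each array, 12 of 35 rises and 5 of 5 falls belong to the 52. The acute arrays lay beyond all 6 baseline arrays in 140 of the 190 genes, against 9.22% of all genes (6.22% above and 3.01% below). All 190 already had their acute arrays on one side of baseline A, so 9.22% is not a like share. Of the 1967 genes tested with that property, called or not, 828 lay beyond both baselines. The split that follows is largely decided by how the 52 were marked and is a description. The acute arrays lay beyond both baselines for 99 of the 103 rises and 29 of the 35 falls outside the 52, and for 12 of the 29 rises and 0 of the 23 falls among them.

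**Figure D2:**
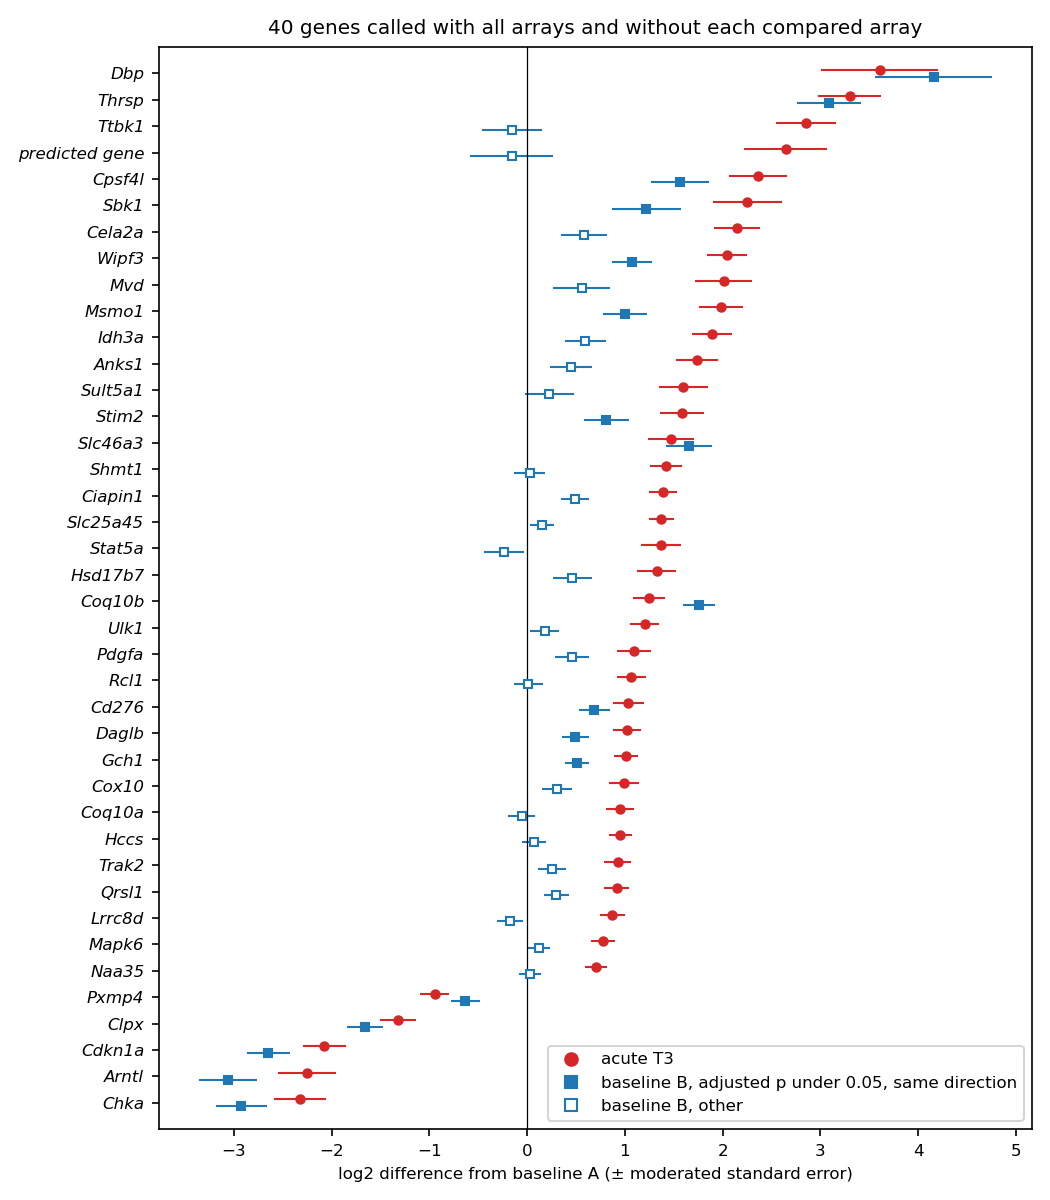
Log2 difference from baseline A (x axis, ± moderated standard error, n = 3 arrays a group) of the 40 genes called with all arrays and without each compared array (y axis). Red circles stand for acute T3 and blue squares for baseline B, filled where baseline B is called different from A in the same direction (17 genes); all 5 falls carry a filled square. Baseline B was not well above background for Ttbk1, the predicted gene, Arntl, Chka and Cdkn1a, so those squares have only a bound.

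Thrsp (Spot 14, a promoter of lipogenesis and a classical T3 target; chromosome 7, 97412933 to 97417550 in GRCm38.p6) measured 10.23, 10.43 and 10.53 in baseline A and 13.77, 13.48 and 13.84 after acute T3. The acute arrays lay more than 2 log2 units above the baseline A arrays, with no overlap. Thrsp rose 9.84-fold (3.30 ± 0.32; adjusted p = 0.000442), and its other detected probe gave 3.25 ± 0.36. In untreated baseline B the gene read 12.92, 14.27 and 13.25. The untreated arrays of that subset therefore spanned the acute arrays, and the difference of acute T3 from baseline B was 0.21 ± 0.32 (adjusted p = 0.694).

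Dio1, the deiodinase that converts thyroxine to T3 and also clears both, measured 11.07, 11.34 and 11.20 in baseline A and 12.75, 12.30 and 12.89 after acute T3. Baseline B lay between them at 11.62, 11.87 and 11.84. Dio1 rose by 1.44 ± 0.27 (2.72-fold; adjusted p = 0.0176), and the second detected probe gave 1.70 ± 0.49 without passing (adjusted p = 0.109). Omission of baseline A replicate 1, acute T3 replicate 1 or acute T3 replicate 3 ended the call (adjusted p = 0.0762, 0.0718 and 0.0857). Against baseline B the difference was 0.87 ± 0.27 (adjusted p = 0.0623).

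Gpd2, the mitochondrial glycerol-3-phosphate dehydrogenase of the glycerol phosphate shuttle, measured 9.65, 9.11 and 10.10 in baseline A, 11.22, 11.05 and 11.39 after acute T3, and 9.91, 9.36 and 9.40 in baseline B. The 2 baselines overlapped and every acute array lay above all 6 untreated arrays. Gpd2 rose by 1.60 ± 0.28 (3.03-fold; adjusted p = 0.0124), and by 1.67 ± 0.28 against baseline B (adjusted p = 0.00531). Without acute T3 replicate 1 or 3 the adjusted p was 0.0561 and 0.0625. Its second detected probe gave 0.88 ± 0.32 and did not pass (adjusted p = 0.221).

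**Figure D3:**
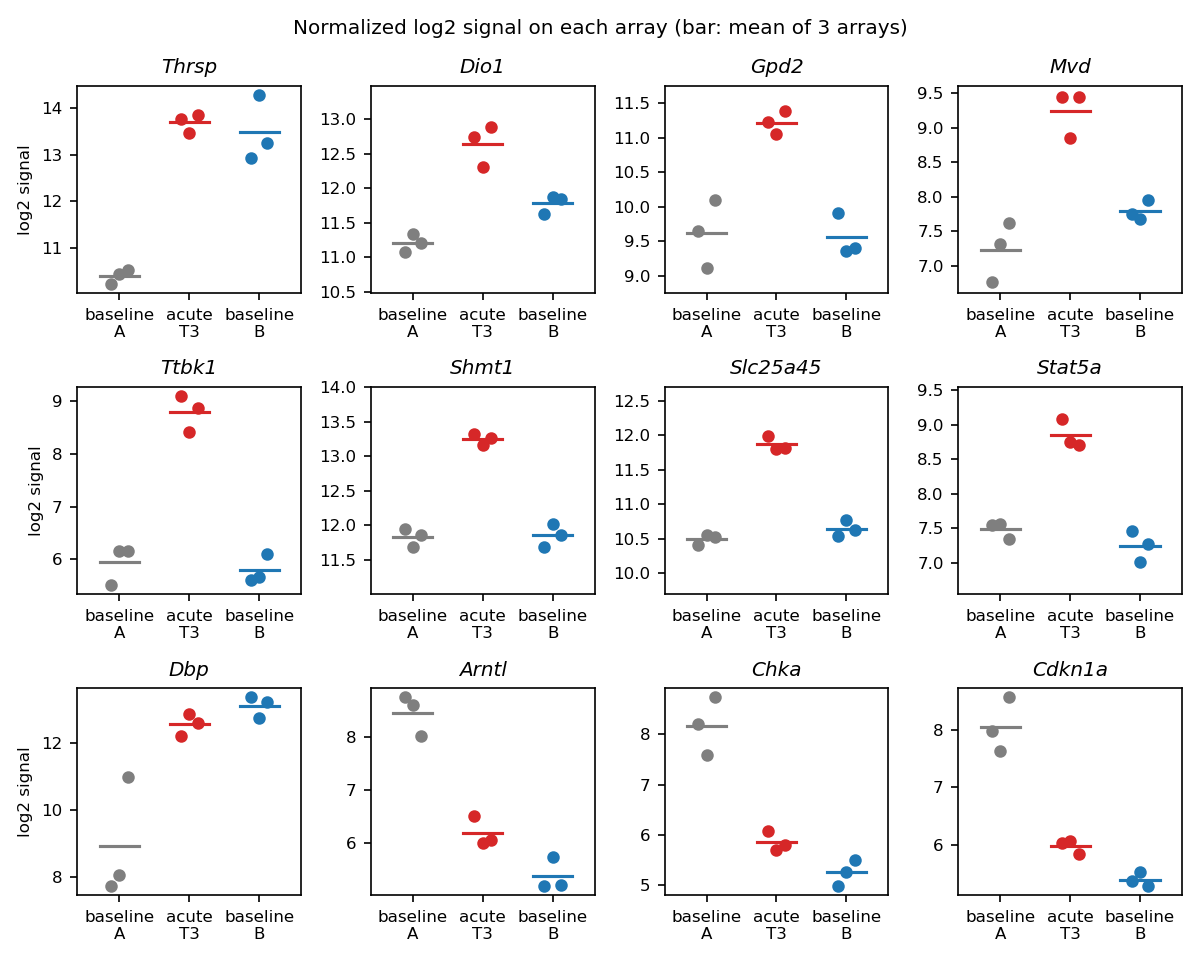
Normalized log2 signal (y axes) of 12 genes on each array of baseline A (grey), acute T3 (red) and baseline B (blue), with a bar at the mean of 3 arrays. Thrsp, Dbp, Arntl, Chka and Cdkn1a show baseline B on the acute side of baseline A, while Gpd2, Ttbk1, Shmt1, Slc25a45 and Stat5a show both baselines on one side.

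The rises that held without each array and were not called between the baselines numbered 23. All 23 were also called higher in acute T3 than in baseline B, where 628 of the 8976 genes (7%) were. That comparison reuses the 3 acute arrays, and the genes had been taken for a baseline B not called different from A, so the count follows largely from the choice and is a description. In acute T3 against baseline B 841 genes were called in all (9.37%), 213 of them lower (2.37%), and 75 of the 132 rises and 15 of the 58 falls of the acute response were among those called the same way. The largest named one was Ttbk1, a tau tubulin kinase (chromosome 17, 46442448 to 46487675). It measured 5.52, 6.16 and 6.15 in baseline A, 9.09, 8.42 and 8.86 after acute T3, and 5.61, 5.65 and 6.10 in baseline B. The acute arrays lay more than 2 log2 units above both baselines, and Ttbk1 was not well above background in baseline B. Against baseline A, where 2 of 3 arrays detected it, Ttbk1 rose 7.21-fold (2.85 ± 0.31; adjusted p = 0.000561).

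Shmt1, the cytosolic serine hydroxymethyltransferase that feeds one-carbon units into folate metabolism, measured 11.95, 11.68 and 11.86 in baseline A and 13.33, 13.16 and 13.27 after acute T3. Baseline B, at 11.68, 12.02 and 11.86, coincided with baseline A. Shmt1 rose by 1.42 ± 0.16 (adjusted p = 0.000662), and its second detected probe gave 1.24 ± 0.31 without passing (adjusted p = 0.0698).

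Idh3a, the catalytic subunit of the NAD-dependent isocitrate dehydrogenase of the citric acid cycle, read 7.94, 7.64 and 7.93 in baseline A and 9.80, 9.52 and 9.86 after acute T3. It rose 3.71-fold (1.89 ± 0.21; adjusted p = 0.000581), with baseline B at 8.09, 8.55 and 8.66, below every acute array. Stat5a, a transcription factor downstream of growth hormone and cytokine receptors, read 7.55, 7.56 and 7.35 in baseline A and 9.09, 8.76 and 8.71 after acute T3. It rose by 1.37 ± 0.21 (adjusted p = 0.00518), and baseline B (7.46, 7.01 and 7.28) reached no higher than baseline A.

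Further rises of this kind were those of Anks1, an adapter protein (1.74 ± 0.21), and Sult5a1, a sulfotransferase (1.60 ± 0.25). Cela2a, a pancreatic elastase, rose by 2.15 ± 0.24 from 6.18, 6.50 and 6.72 to 8.49, 8.62 and 8.73. It is 1 of 3 tested exocrine pancreas markers of the 17 listed, and their mean level was 9.89 to 10.2 in baseline A and 11.0 to 11.3 after acute T3. The other members, Cela1 (1.01 ± 0.37; adjusted p = 0.212) and Amy2a5 (0.020 ± 0.098; adjusted p = 0.963), did not pass, and the part of pancreas RNA in the rise of Cela2a was not tested.

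The next genes were chosen for mention after their values were seen. Slc25a45, a member of the mitochondrial carrier family, rose by 1.37 ± 0.12 with the 3 acute arrays at 11.99, 11.79 and 11.81 against 10.40, 10.55 and 10.52 in baseline A. Ciapin1 of cytosolic iron-sulfur cluster assembly rose by 1.39 ± 0.14 and Coq10a, a coenzyme Q binding protein, by 0.95 ± 0.14. Hccs, which attaches heme to cytochrome c, rose by 0.95 ± 0.12, and Cox10, which makes heme O for cytochrome oxidase, by 0.99 ± 0.16. Ulk1, the kinase that starts autophagy, rose by 1.21 ± 0.15. Rcl1, which acts in 18S ribosomal RNA maturation, rose by 1.07 ± 0.15, and Qrsl1 of mitochondrial glutaminyl-tRNA formation by 0.92 ± 0.13. Trak2, an adapter of mitochondrial transport, rose by 0.93 ± 0.14, Lrrc8d, a subunit of volume-regulated anion channels, by 0.87 ± 0.13, Mapk6, an atypical MAP kinase, by 0.78 ± 0.12, and Naa35, a subunit of an N-terminal acetyltransferase, by 0.70 ± 0.11. Pdgfa, a growth factor, rose by 1.09 ± 0.18. In each of these genes every acute array exceeded all 6 untreated arrays.

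Of the 26 tested genes listed as T3-induced in liver, 7 rose, 0 fell and 19 did not pass, with a median of 0.46. Over all genes tested 1.47% rose and 0.646% fell, the shares against which this and the later list counts are to be read. Besides Thrsp, Idh3a, Gpd2 and Dio1 these were Bcl3, Tbl1xr1 and Cyp7a1. Bcl3, an I kappa B family protein that works with NF-kappa B, read 6.53, 7.17 and 7.09 in baseline A and 8.35, 8.24 and 8.57 after acute T3, a rise of 1.46 ± 0.28 (2.75-fold). Cyp7a1, the hydroxylase that starts the classical route from cholesterol to bile acids, read 11.74, 11.76 and 11.67 in baseline A, 12.76, 13.58 and 13.52 after acute T3, and 11.07, 12.40 and 12.42 in baseline B. The acute arrays lay above all untreated ones, and Cyp7a1 rose by 1.56 ± 0.33 (adjusted p = 0.0295), a call that ended without any of 5 arrays, acute T3 replicate 1 being the exception (adjusted p up to 0.114). Bcl3 was no longer called on omission of acute T3 replicate 1 or 3 or of baseline A replicate 1 (adjusted p up to 0.0891). Tbl1xr1, a corepressor complex subunit that exchanges cofactors at nuclear receptors, rose by 0.51 ± 0.10, a call that ended on omission of any acute T3 array or of baseline A replicate 1 (adjusted p up to 0.121). Among the 19 that did not pass were Fasn, fatty acid synthase (1.69 ± 0.41; adjusted p = 0.0509), Ppargc1b, a coactivator of mitochondrial genes (1.33 ± 0.34; adjusted p = 0.0589), Me1, malic enzyme (0.72 ± 0.28), Klf9, a transcription factor with known thyroid hormone response (-0.15 ± 0.15), and Pck1 of gluconeogenesis (0.012 ± 0.24). The count was 2 to 8 of these genes when 1 array was left out, lowest without acute T3 replicate 3 and 3 without acute T3 replicate 1 or baseline A replicate 1. Of 11 tested T3-repressed genes 1 fell and 0 rose. The gene that fell was also called lower in untreated baseline B than in A, and its acute arrays did not lie beyond both baselines.

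**Figure D4:**
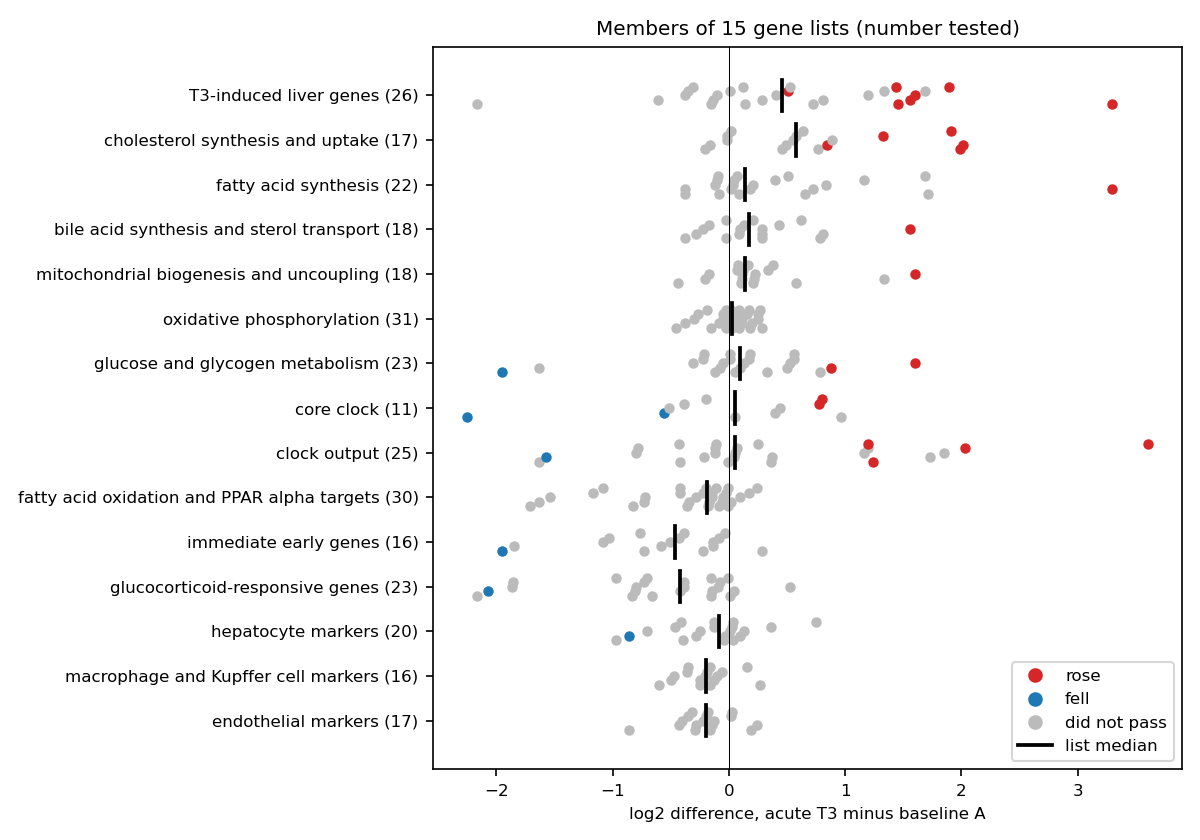
Log2 difference of acute T3 from baseline A (x axis) for the tested members of 15 gene lists (y axis, number tested in parentheses); points are genes, red for called rises, blue for called falls and grey for genes that did not pass, and the black bar is the list median. Red points are most frequent among the T3-induced, cholesterol synthesis and clock lists.

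Genes of cholesterol synthesis and uptake rose in 5 of 17 tested, 0 fell and 12 did not pass, and the list median was 0.58. Mvd, mevalonate diphosphate decarboxylase of the early pathway (chromosome 8, 122433596 to 122443422), read 6.76, 7.31 and 7.62 in baseline A, 9.44, 8.86 and 9.44 after acute T3, and 7.74, 7.68 and 7.95 in baseline B. It was highest in the acute arrays without overlap and rose 4.03-fold (2.01 ± 0.29; adjusted p = 0.00385). Sqle, the squalene epoxidase that opens the sterol branch, rose by 1.91 ± 0.35 (other detected probe 1.40 ± 0.57, which did not pass) but was no longer called on omission of acute T3 replicate 1 or 3 or of baseline A replicate 1 (adjusted p up to 0.0739).

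Msmo1, which removes methyl groups from sterol intermediates, read 11.25, 11.60 and 11.12 in baseline A, 13.44, 13.03 and 13.44 after acute T3, and 12.14, 12.43 and 12.39 in baseline B. It rose 3.96-fold against baseline A (1.98 ± 0.23; adjusted p = 0.000688). Baseline B lay between the other groups, 1.00 above A (adjusted p = 0.0203), and acute T3 was 0.98 ± 0.23 above B (adjusted p = 0.0198). Hsd17b7, a reductase of the late pathway, rose by 1.33 ± 0.20, from 11.34, 11.30 and 11.22 to 12.74, 12.36 and 12.76. Sc5d, the sterol C5 desaturase, rose by 0.85 ± 0.19, a call lost without any single array (adjusted p 0.0647 to 0.163). Srebf2, the transcription factor that controls this pathway, differed by 0.77 ± 0.20 (adjusted p = 0.0667), and Insig1, its retention factor, by -0.16 ± 0.32. Sqle and Msmo1 are among the 52 genes whose baselines also differed, and the list median of baseline B against A was 0.50. Omission of acute T3 replicate 1 or 3 or of baseline A replicate 1 left 3 calls in the list, and omission of each other array left 4.

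In fatty acid synthesis 1 of 22 tested genes rose, Thrsp itself, and the median was 0.14. Among 30 genes of fatty acid oxidation and PPAR alpha targets 0 were called by limma, 8 had an unadjusted p under 0.05 (1322 of all 8976 genes did, 14.7%), and the median was -0.19 with 26 below 0 (4527 of all 8976 genes were). Ehhadh, the peroxisomal bifunctional enzyme, came closest (-0.72 ± 0.17; adjusted p = 0.0503). Acot11, a thioesterase that releases fatty acids from acyl-CoA, was read from a probe not well above background on the baseline A arrays. That probe was at least 6.42-fold higher after acute T3 (adjusted p = 0.0124). Other detected probes of Acot11 gave smaller differences, 1.70 ± 0.38, which passed (adjusted p = 0.0458), and 2.15 ± 0.67, which did not (adjusted p = 0.145). Without acute T3 replicate 1 the adjusted p of the first probe was 0.0620. Baseline B was called higher than A for that probe as well (adjusted p = 0.0492), and acute T3 differed from baseline B by 1.22 ± 0.52 (adjusted p = 0.147). Oxidative phosphorylation showed 0 called of 31 by limma (7 at an unadjusted p under 0.05; median 0.024) and cytosolic ribosomal proteins 0 of 27 (0 at an unadjusted p under 0.05; median 0.016).

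The molecular clock consists of the activators BMAL1 (Arntl) and CLOCK and the repressors they drive, the PER, CRY and REV-ERB proteins, and its outputs include the factors DBP and TEF. Of 11 tested core clock genes 2 rose (Nr1d2 and Cry2), 2 fell (Arntl and Clock) and 7 did not pass, and each of these 4 was called in the same direction in baseline B against A. Arntl (chromosome 7, 113178471 to 113314126) read 8.74, 8.59 and 8.02 in baseline A, 6.52, 6.01 and 6.07 after acute T3, and 5.20, 5.75 and 5.22 in baseline B. Acute T3 and baseline B both lay below every baseline A array. Arntl fell 4.76-fold against A (-2.25 ± 0.30; adjusted p = 0.00203), and baseline B, where it was not well above background, was at least 4-fold lower than A. Clock differed by -0.55 ± 0.11 and -0.99 ± 0.11 in the same contrasts.

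Nr1d2 (REV-ERB beta) rose by 0.80 ± 0.18 and Cry2 by 0.78 ± 0.18, and baseline B was 0.82 and 1.13 above A. The other detected probe of Nr1d2 gave 0.29 ± 0.43 (adjusted p = 0.859), and its call ended with the replicate number as a block. Clock, Nr1d2 and Cry2 lost the call without any array other than baseline A replicate 3 (adjusted p up to 0.113, 0.146 and 0.198). Counts in the list were 1 without any array other than that one, and 5 without it. In baseline A replicate 3 Arntl was the lowest of its group and Nr1d2 and Cry2 the highest.

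Of 25 tested clock output genes 4 rose (Dbp, Usp2, Coq10b and Tef), all also called higher in baseline B, and Lonrf3 fell. Dbp, a rhythmic bZIP transcription factor, read 7.76, 8.06 and 10.99 in baseline A, 12.20, 12.85 and 12.57 after acute T3, and 13.34, 12.73 and 13.21 in baseline B. Baseline A replicate 3 stood about 3 log2 units above the other baseline A arrays, and the acute and baseline B arrays overlapped. Dbp rose by 3.61 ± 0.60 (12.2-fold; adjusted p = 0.00946), with differences of 3.02 to 4.63 when 1 array was left out. A fit on the 6 compared arrays alone did not call it.

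Coq10b, a coenzyme Q binding protein, read 10.03, 9.79 and 9.71 in baseline A, 10.66, 11.39 and 11.22 after acute T3, and 11.57, 11.56 and 11.68 in baseline B. The acute arrays lay between the baselines, and the rise was 1.24 ± 0.16 (adjusted p = 0.00203). Usp2, a rhythmic ubiquitin protease, rose by 2.03 ± 0.43, while baseline B exceeded A by 4. The other detected probe of Usp2 gave, for acute T3 against A, 0.097 ± 0.27 (adjusted p = 0.937). Tef, a relative of DBP, rose by 1.20 ± 0.25, with baseline B 1.64 above A. The calls of Usp2 and Tef ended on omission of acute T3 replicate 2 or 3 or of baseline A replicate 1 or 2, and that of Tef also without acute T3 replicate 1 (adjusted p up to 0.137 and 0.121). Lonrf3 fell by 1.58 ± 0.35 on the log2 scale, while its other detected probe gave -0.011 ± 0.25 (adjusted p = 0.991), and its call ended without any single array (adjusted p 0.0684 to 0.151). When 1 array was left out 2 to 7 genes of the list were called, 7 without baseline A replicate 3 and 2 on omission of acute T3 replicate 2 or 3 or of baseline A replicate 1 or 2.

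Clock factors BMAL1 and CLOCK bind the E-box CACGTG, and the windows of Coq10b, Tef, Hsd17b7 and Sc5d, of the called clock output and cholesterol genes, are printed because they hold it. The windows of Dbp, Usp2, Mvd and Msmo1, larger rises in the same lists, hold neither it nor the D-box. The sequences are RefSeq windows of 300 bases (GRCm38.p6), from 250 bases before to 50 after a start site, written on the gene's strand, with capitals for an E-box (CACGTG) or a D-box (TTATGTAA or TTACGTAA), the site of DBP and TEF, searched on both strands.
Coq10b, chr1:55052520-55052819, + strand: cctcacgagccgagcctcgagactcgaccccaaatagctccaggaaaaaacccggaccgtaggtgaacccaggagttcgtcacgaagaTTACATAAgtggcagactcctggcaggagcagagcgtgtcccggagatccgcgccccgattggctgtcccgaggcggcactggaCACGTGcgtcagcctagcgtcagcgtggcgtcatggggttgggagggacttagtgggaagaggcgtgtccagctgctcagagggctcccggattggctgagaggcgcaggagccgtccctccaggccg
Tef, chr15:81811164-81811463, + strand: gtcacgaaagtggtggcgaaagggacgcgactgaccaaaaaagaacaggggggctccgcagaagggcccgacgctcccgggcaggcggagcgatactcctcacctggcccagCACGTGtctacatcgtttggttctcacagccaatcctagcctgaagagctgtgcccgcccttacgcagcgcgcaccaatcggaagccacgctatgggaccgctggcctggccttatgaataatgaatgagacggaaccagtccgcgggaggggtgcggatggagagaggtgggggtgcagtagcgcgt
Tef, other start site, chr15:81802423-81802722, + strand: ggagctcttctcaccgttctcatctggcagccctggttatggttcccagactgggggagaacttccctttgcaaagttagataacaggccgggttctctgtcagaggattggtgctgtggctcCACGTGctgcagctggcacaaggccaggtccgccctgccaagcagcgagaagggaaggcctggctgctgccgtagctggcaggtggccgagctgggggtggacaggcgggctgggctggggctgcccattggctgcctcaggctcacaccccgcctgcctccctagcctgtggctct
Hsd17b7, chr1:169969156-169969455, - strand: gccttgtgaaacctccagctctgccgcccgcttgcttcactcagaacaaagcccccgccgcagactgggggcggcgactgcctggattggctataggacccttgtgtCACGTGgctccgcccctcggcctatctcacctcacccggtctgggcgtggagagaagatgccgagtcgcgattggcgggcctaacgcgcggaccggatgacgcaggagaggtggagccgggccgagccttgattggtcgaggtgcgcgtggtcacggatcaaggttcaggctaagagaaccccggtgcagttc
Sc5d, chr9:42264251-42264550, - strand: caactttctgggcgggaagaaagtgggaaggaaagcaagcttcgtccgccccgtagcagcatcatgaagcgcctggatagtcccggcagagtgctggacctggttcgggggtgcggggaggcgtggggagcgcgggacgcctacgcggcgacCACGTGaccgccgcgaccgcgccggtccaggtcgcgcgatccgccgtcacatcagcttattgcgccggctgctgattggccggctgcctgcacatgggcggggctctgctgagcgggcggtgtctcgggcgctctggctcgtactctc

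The E-box begins 78 bases before the start site in Coq10b, 138 and 127 in Tef, 143 in Hsd17b7 and 98 in Sc5d, and the D-box of Coq10b begins 162 bases before it. The E-box was present in 7.15% of all 32851 promoter windows and in 10.2% of those of tested genes. It was present in 7 of 29 windows of tested clock output genes (24.1%), in 4 of 17 of cholesterol genes (23.5%), in 19 of 146 windows of genes that rose (13%) and in 8 of 61 of genes that fell (13.1%). In the other lists searched it was present in 1 of 16 windows of core clock genes (6.25%) and in 2 of 26 of T3-induced genes (7.69%). A gene with several start sites, such as Tef, enters with each of its windows. The D-box was present in 1.06% of all windows. The hormone receptor element DR4, a pair of AGGTCA sites in direct repeat with any 4 bases between them, was found in 0.0152% of all windows. It was found in 0 of the 9393 windows of tested genes, called or not, so its absence from those of called genes says nothing about the response. The window of Thrsp, printed for the marker with the 9.84-fold rise, held none of the motifs searched, which also included AGGTCA (16.3% of all windows, overlapping DR4) and TCACNCCAC (1.24%). TCACNCCAC was present in 0 of 17 windows of cholesterol genes. Bases outside the windows were not searched, so sites farther from a start site are not covered.
Thrsp, chr7:97417501-97417800, - strand: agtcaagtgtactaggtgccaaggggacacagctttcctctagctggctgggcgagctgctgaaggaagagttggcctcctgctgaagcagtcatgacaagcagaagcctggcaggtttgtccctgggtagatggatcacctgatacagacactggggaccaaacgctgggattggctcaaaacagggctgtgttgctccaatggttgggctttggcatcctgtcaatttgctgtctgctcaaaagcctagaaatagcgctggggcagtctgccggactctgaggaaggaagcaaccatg

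The 5 falls that held without each array were those of Chka, Arntl, Cdkn1a, Clpx and Pxmp4, and baseline B was lower than baseline A in each. Chka, choline kinase alpha, the first step of phosphatidylcholine synthesis from choline (chromosome 19, 3851585 to 3894369), read 8.20, 7.60 and 8.74 in baseline A, 6.07, 5.70 and 5.80 after acute T3, and 4.99, 5.26 and 5.51 in baseline B. It fell 5-fold against A (-2.32 ± 0.26; adjusted p = 0.000662) and its second detected probe gave -2.51 ± 0.21. Acute T3 and baseline B were both below every baseline A array, and baseline B, not well above background, was at least 3.31-fold lower than A. After acute T3 Chka was detected on 1 of 3 arrays.

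Cdkn1a, the cell cycle inhibitor p21, read 7.98, 7.62 and 8.56 in baseline A, 6.03, 6.06 and 5.85 after acute T3, and 5.38, 5.53 and 5.30 in baseline B. The fall was 4.21-fold (-2.07 ± 0.22; adjusted p = 0.000561), and of its other detected probes one passed (-2.14 ± 0.31) and one did not (-0.90 ± 0.27). Baseline B was not well above background and at least 3.04-fold lower than A. Clpx, the ATPase of the mitochondrial ClpXP protease, differed by -1.32 ± 0.18 (not called in a fit on the 6 compared arrays alone) and Pxmp4, a peroxisomal membrane protein, by -0.95 ± 0.15. In these 5 genes every acute array lay below baseline A, and in none did they all lie below baseline B.

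Of the 35 falls not called between the baselines, Fos, an immediate early transcription factor, read 7.01, 7.67 and 7.45 in baseline A and 7.91, 8.25 and 7.07 in baseline B. After acute T3 it was not well above background on any array and at least 2.89-fold lower than in baseline A (adjusted p = 0.0188). Omission of baseline A replicate 2, acute T3 replicate 1 or acute T3 replicate 3 ended the call (adjusted p = 0.0662, 0.0561 and 0.0906). Fos was the 1 called member of 16 tested immediate early genes, whose median was -0.47 with 15 of 16 below 0. Over all genes tested 4527 of 8976 lay below 0. Other lists leaned below 0 as well, with 21 of 25 chaperones, 21 of 26 antioxidant and glutathione genes and 20 of 24 acute phase genes there. Some leaned the other way, such as interferon response genes with 9 of 26 below 0. The immediate early list held 0 calls without acute T3 replicate 1 or 3 and 2 without acute T3 replicate 2. Egr1, a zinc finger factor also counted as immediate early, differed by -1.85 ± 0.58 (adjusted p = 0.140).

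Of 23 tested glucocorticoid-responsive genes 1 fell, Cdkn1a, with a median of -0.42 and 20 of 23 below 0. Igfbp1, an insulin-like growth factor binding protein, differed by -1.87 ± 0.50 (adjusted p = 0.0732) and Zbtb16, a zinc finger factor, by -1.85 ± 0.60 (adjusted p = 0.148). Smaller calls in stress lists were those of Gclc, the catalytic subunit of glutathione synthesis (-1.42 ± 0.31), and Nupr1, a stress-induced nuclear protein (-1.54 ± 0.32). Both ended without any single array (adjusted p 0.0515 to 0.138 and 0.0627 to 0.107). Nr1i2, the xenobiotic receptor PXR, fell by 0.66 ± 0.16 on the log2 scale, a call also lost without any single array (adjusted p 0.0529 to 0.181).

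Of 23 tested genes of glucose and glycogen metabolism 2 rose (Gpd2 and Slc2a2), 1 fell (Ppp1r3g) and 20 did not pass. The count was 0 without acute T3 replicate 1 or 3, 1 with baseline A replicate 1 or 3 omitted and 2 without the other arrays. Slc2a2, the glucose transporter GLUT2, read 10.92, 10.85 and 10.60 in baseline A, 11.93, 11.22 and 11.86 after acute T3, and 12.52, 12.63 and 12.38 in baseline B, so that the acute arrays lay between the baselines. It rose by 0.88 ± 0.18 against A, with its other detected probes at 0.44 ± 0.48 and 0.98 ± 0.60 (neither passed), and was 0.84 lower than in baseline B (adjusted p = 0.0133).

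Ppp1r3g, a glycogen-targeting subunit of protein phosphatase 1, read 8.42, 6.62 and 7.16 in baseline A and 8.66, 9.71 and 9.87 in baseline B. After acute T3 it was not well above background and at least 2.95-fold lower than in baseline A (adjusted p = 0.0393). The call of Ppp1r3g was lost with normexp correction, without background correction, with neqc offset 50 and with the authors' normalized values. Slc25a42, the mitochondrial coenzyme A carrier, read 9.91, 9.73 and 9.75 in baseline A, 10.63, 10.43 and 10.44 after acute T3, and 9.01, 9.19 and 8.99 in baseline B, and rose by 0.70 ± 0.15. For both genes baseline B lay on the far side of baseline A from the acute arrays. The call of Slc25a42 ended without any single array (adjusted p up to 0.140), that of Ppp1r3g without any array but baseline A replicate 2 (up to 0.149), and that of Slc2a2 without any array but acute T3 replicate 2 (up to 0.112).

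Other lists held few calls. Of 22 tested genes of insulin and growth factor signalling Stat5a and Igfbp4, an insulin-like growth factor binding protein (0.50 ± 0.11), rose. Of 16 p53 targets Sesn1, a sestrin that restrains mTORC1, rose (0.66 ± 0.14), and Cdkn1a and the death receptor Fas (-0.61 ± 0.12) fell. Of 24 cell cycle genes Rrm2, a ribonucleotide reductase subunit whose signal on baseline A arrays was not well above background, was at least 1.87-fold higher. Of 25 chaperones Stip1, a cochaperone of HSP90, fell (-0.63 ± 0.13), and of 25 genes of the urea cycle and amino acid catabolism Prodh, proline dehydrogenase, rose (1.05 ± 0.23). The other detected probes of Igfbp4 (0.46 ± 0.13), Sesn1 (0.55 ± 0.18) and Fas (-0.38 ± 0.36) did not pass (adjusted p = 0.0890, 0.176 and 0.743). Nor did those of Rrm2 (1.03 ± 0.47) and Prodh (0.92 ± 0.25; adjusted p = 0.356 and 0.0875). The call of Igfbp4 ended without any array but baseline A replicate 1 (adjusted p up to 0.119), that of Stip1 without any but acute T3 replicate 3 (up to 0.119), and those of Sesn1, Fas and Prodh without any but baseline A replicate 3 (up to 0.159, 0.0909 and 0.116). That of Rrm2 ended on omission of acute T3 replicate 1 or 3 or of baseline A replicate 1 or 2 (up to 0.0857). By limma 0 of 26 interferon response genes, 0 of 24 acute phase genes and 0 of 20 genes of iron and heme were called (2, 4 and 1 at an unadjusted p under 0.05).

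Markers of other liver cell types were counted in the same way. Of 16 tested macrophage and Kupffer cell markers 0 were called by limma (1 at an unadjusted p under 0.05), with a median of -0.20, 14 of 16 below 0, and mean levels of 8.42 to 8.94 in baseline A and 8.25 to 8.77 after acute T3. Of 17 endothelial markers 0 were called (3 at an unadjusted p under 0.05; 8.84 to 9.11 against 8.66 to 8.92), and of 14 stellate cell and fibroblast markers 0 (1 at an unadjusted p under 0.05; 8.22 to 8.71 against 8.14 to 8.35). Only 3 cholangiocyte, 3 neutrophil, 3 lymphocyte, 4 erythroid and 1 adipose marker were tested and none was called. The part of other cell types in the response was not tested further. Among the 20 hepatocyte markers the probe of Alb, serum albumin, fell by 0.86 ± 0.15 on the log2 scale (adjusted p = 0.0134). It read 8.86 to 9.12 in baseline A and 8.13 to 8.15 after acute T3, and its call ended on omission of any acute T3 array or of baseline A replicate 1 (adjusted p up to 0.0690). The probe lay far below the mean level of the 20 markers, 12.9 to 13.1 in baseline A, and how well it follows albumin RNA was not tested.

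The chronic T3 group and baseline B share no array with acute T3 and baseline A, so the difference of their means rests on other arrays. Both differences were tested with the same spread of a gene, estimated over the 15 arrays. A gene with a small spread thus passes more easily in both, and the shared counts here and below are a description. In chronic T3 against baseline B 2052 genes were called (22.9%), 1111 higher (12.4%) and 941 lower (10.5%). Of the 132 acute rises 84 were also called higher after chronic T3 (63.6% of the acute and 7.56% of the chronic rises) and 4 lower. Of the 58 acute falls 26 were also called lower (44.8% of the acute and 2.76% of the chronic falls) and 2 higher. Baseline B enters both this difference and the marking of the 52 genes, so the split that follows is a description. Outside the 52 genes 69 of 103 rises and 25 of 35 falls were called the same way after chronic T3, and among them 15 of 29 rises and 1 of 23 falls.

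Of the 35 rises that held without each array, 31 were also called higher after chronic T3. Ttbk1 was at least 8.25-fold higher after chronic T3 than in baseline B. Stat5a differed by 1.63 there, Gpd2 by 1.57, Dio1 by 1.54 and Thrsp by 1.03. Dbp (-0.40), Usp2 (-0.20), Coq10b (-0.28) and Tef (-0.21) did not pass there, nor did Arntl and Chka, which were not well above background in baseline B. Cdkn1a fell after acute T3 against baseline A and was at least 5.05-fold higher after chronic T3 than in baseline B, where it was not well above background (adjusted p = 1.15e-06). With 1 array of acute T3 or baseline A left out, 33 to 79 rises (lowest without acute T3 replicate 3) and 0 to 12 falls were shared. The rises were 34 without acute T3 replicate 1, 37 without baseline A replicate 1, 51 without baseline A replicate 2 and 54 without acute T3 replicate 2. The falls were 0, 2 and 4 without acute T3 replicates 3, 1 and 2 and 3, 10 and 12 without baseline A replicates 1, 2 and 3. With median scaling 53 rises and 4 falls were shared, and with the authors' normalized values 107 and 48.

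**Figure D5:**
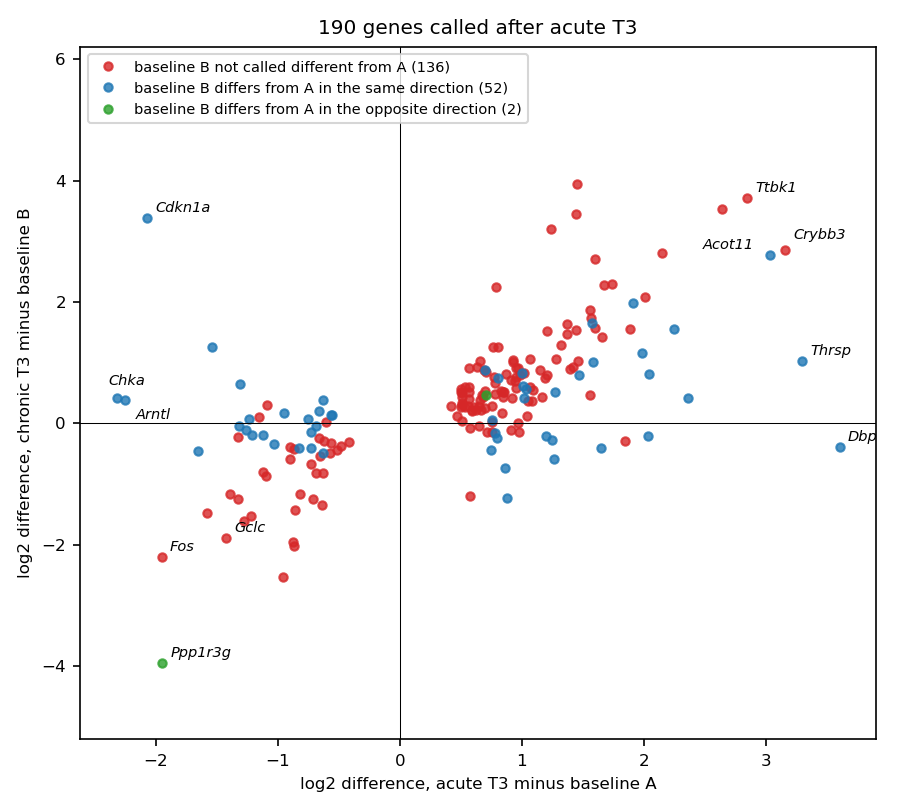
Log2 difference of chronic T3 from baseline B (y axis) against that of acute T3 from baseline A (x axis) for the 190 genes called after acute T3; blue marks the 52 genes with baseline B called different from A in the same direction, green the 2 in the opposite direction and red the others. Most rises outside the 52 lie in the upper right, while Dbp, Arntl and Chka lie near 0 on the y axis, the latter pair with baseline B not well above background.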

How the data were processed

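Total RNA of mouse liver was labelled and read on Illumina arrays of 45281 probes. The deposited file holds, per the file headers, a linear intensity per probe and array, not normalized, and a detection p-value. A second deposited table holds intensity values quantile-normalized by the authors, used as an alternative. Partek 6.6 is named in the submitters' processing notes without a role, and background handling is not given in the sources used here.

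Here neqc in limma 3.58.1 under R 4.3.3 (offset 16) estimated the background from those p-values, quantile-normalized the arrays and gave log2 values. Probes detected (p under 0.01) on at least 3 of 15 arrays were kept, and each gene was read from its probe of highest mean. This gave 8976 genes from 13238 detected probes with 1 gene symbol; of all probes 34885 have 1 symbol, 18 several and 10378 none in the platform annotation. A single limma model was fitted to the 15 arrays, with group means and no block (10 residual, 13.1 moderated degrees of freedom), and tested 2-sided with Benjamini-Hochberg adjustment. A permutation test of 3 against 3 cannot go below p = 0.1 and was not used. For a gene not detected on any array of a group, the fold is a bound computed from the dimmest detected probe on each of them. Replicate numbers were checked as pairs by correlating residuals. The r were -0.0041, -0.28 and -0.27 between acute T3 and baseline A, which were not treated as paired, and 0.13, 0.25 and 0.19 between the baselines, where every r exceeded 0.1. The pipeline was tested on simulated data.

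The comparison, its genes and the gene lists were chosen with earlier results of these data known. The 104 named genes are Thrsp, Dio1 and Gpd2, the largest called changes overall and among calls kept without each array, the most significant called members of each list (or, with none, the smallest p), all tested T3-induced genes and the largest of the genes whose baselines differ, overlap or oppose. Not all are described above. Left out were the large rises of Crybb3 (3.16 ± 0.64), whose call ended without any array but baseline A replicate 3, and of Cpsf4l (2.36 ± 0.30), Sbk1 (2.25 ± 0.35) and Wipf3 (2.04 ± 0.20). The last ones kept the call without each array and were also called higher in baseline B than in A. Further genes are said to be chosen later. Gene coordinates are of RefSeq GRCm38.p6. Tried as alternatives were the background, the scaling, the filter, the choice of probe, variance models, thresholds, array subsets, the replicate block and leaving out each array. The alternatives for the counts shared with chronic T3 were added after seeing the data.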

Additional observations from a re-analysis of the deposited data

Results flagged for a closer look

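Outside the genes tested, signal differed at probes that have no gene symbol or several in the platform annotation. Of 2123 such detected probes, 33 were called in acute T3 against baseline A when each was tested, 21 higher and 12 lower. They are unnamed here, and they enter none of the counts above.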

How the results depend on the processing

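The 190 genes called in acute T3 against baseline A, and the 52 of them with a like difference between baselines, changed by over 1.5 times in several settings. Without background correction, and with the authors' normalized values, 295 and 95 were called. Each of these settings gave 189 rises and 106 falls, so they are not separate alternatives. With normexp correction 83 of 265 called genes were in the second set, and with median scaling 123 and 25 genes. Without a filter on detection 109 and 30 were called, with the probe of largest variance 110 and 34, with a trended and robust variance 288 and 91, and with array weights 65 and 10. A fit on the 6 compared arrays called 93. An adjusted p under 0.01 gave 41 and 8, and one under 0.1 gave 371 and 136. Counting baselines as different where their arrays do not overlap gave 95 in place of 52, and baseline B as the reference gave 841 called genes. The cause of these shifts was not tested, apart from those built into the stricter or looser threshold and the smaller number of arrays. Leaving out 1 array gave 48 to 164 called genes and 10 to 41 in the second set. With a replicate block 154 and 46 were called, and 52 of the 58 named called genes kept the call; Igfbp4, Nr1d2, Nr1i2, Slc22a7, Slc25a42 and Stip1 lost it. Cyclic loess, neqc offset 50, the mean of probes, detection on all 6 arrays, the fit on 9 arrays and a 1.5-fold threshold stayed within 1.5 times. Of the 104 named genes no called one turned direction. Among those not called 9 crossed 0 (18 values, lowest adjusted p 0.601): with median scaling Aldh1a1 (0.078), Klf9 (0.015), Rpl34 (0.0021) and Slc16a10 (5.35e-05), with the probe of largest variance Slc16a10 (0.10), with array weights Aldh1a1 (0.072) and Slc17a8 (0.023), and over fits without 1 array Aldh1a1 (-0.24 to 0.058), Pck1 (-0.25 to 0.16), Ppargc1a (-0.055 to 0.30), Strbp (-0.033 to 0.23), Slc16a10 (-0.29 to 0.012), Cd3g (-0.43 to 0.030) and Slc17a8 (-0.72 to 0.10). Relative to the median of all genes, the medians of the lists given kept their sign under each scaling tried. Among the 58 named called genes, 42 kept the call with median scaling, 41 without the filter and 28 with array weights. Low signal limits genes at background, whose folds are bounds.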
